A study of Homo sapiens with 6 samples.

Results

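The metallothioneins described here are 6 genes of the cluster on chromosome 16, MT2A, MT1E, MT1F, MT1G, MT1M and MT1X. They were chosen by name, and all 6 were found among the 58174 genes of the FPKM table. FPKM counts sequenced fragments relative to transcript length and to library size, and is summed here over the transcripts of each gene. The cells were SiHa, a human cervical squamous carcinoma line, sequenced as mRNA. The OV-BRCA1 group (3 samples) had received the GV230-BRCA1 plasmid, and the NC group (3 samples) the GV230 plasmid without BRCA1, in both cases 48 h before harvest. The study calls the samples of a group biological replicates but does not say whether they were separate cultures, so p-values measure the spread between these samples. The comparison asked how metallothionein mRNA differed after BRCA1 overexpression.

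Metallothioneins are small proteins rich in cysteine. Their thiol groups hold zinc and copper and also capture toxic metals such as cadmium. Zinc switches their genes on through MTF1, a zinc finger transcription factor that binds metal response elements in their promoters, and glucocorticoids and oxidants induce them as well.

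BRCA1 itself was read first, as a check of the labels. In the OV-BRCA1 group, samples 1 to 3 had 35.7, 40.8 and 34.9 FPKM, and in the NC group samples 1 to 3 had 20.1, 14.9 and 21.7 FPKM. Each OV-BRCA1 sample lay above each NC sample, with a log2 fold change of 0.95 ± 0.14 (SE, limma adjusted p = 0.00373). Fold changes throughout are OV-BRCA1 over NC on the log2(FPKM + 1) scale, which understates the change of genes with low values. Fragments from the plasmid and from the cells' own BRCA1 gene cannot be told apart in this table.

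MT2A rose in the OV-BRCA1 group, and no other member passed the test. Of the 6 members, 3 were tested (MT2A, MT1X and MT1F) and 1 was called, which means an adjusted p below 0.05. Of all 16321 genes tested, 35.3% were called, 16.4% as higher and 18.9% as lower. A single called member among 3 was thus near the background. A DEG had also to show an absolute log2 fold change above 1, as 3.99% of genes tested did, and no member was a DEG.

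The coding sequences are shown because the members are close to each other in sequence. Each member's main transcript encoded 61 codons in 3 exons, of which 20 codons, or 32.8%, were for cysteine. The 3 tested members are printed from the first codon to the last before the stop, from the GENCODE 29 transcripts on GRCh38, with the cysteine codons in capitals.
MT2A: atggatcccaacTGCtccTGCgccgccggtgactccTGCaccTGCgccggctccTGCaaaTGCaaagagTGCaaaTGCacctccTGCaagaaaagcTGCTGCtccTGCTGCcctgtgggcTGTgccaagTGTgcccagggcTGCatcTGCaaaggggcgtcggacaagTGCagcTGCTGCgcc
MT1X: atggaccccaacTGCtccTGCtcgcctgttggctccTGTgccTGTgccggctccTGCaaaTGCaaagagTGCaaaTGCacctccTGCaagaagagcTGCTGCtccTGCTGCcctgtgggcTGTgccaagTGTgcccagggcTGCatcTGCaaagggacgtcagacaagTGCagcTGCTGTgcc
MT1F: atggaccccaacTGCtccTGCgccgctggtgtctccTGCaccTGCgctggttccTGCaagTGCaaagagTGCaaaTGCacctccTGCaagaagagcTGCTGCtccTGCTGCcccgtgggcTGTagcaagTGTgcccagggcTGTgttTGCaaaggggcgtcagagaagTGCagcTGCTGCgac
These lie on the plus strand, within chr16:56608656-56609351 for MT2A, chr16:56682541-56684046 for MT1X and chr16:56658059-56659161 for MT1F. MT2A and MT1X were identical at 169 of 183 coding bases, or 92.3%, and all 20 cysteine codons stood at shared positions. MT1F differed from MT2A at 16 bases and from MT1X at 21 bases. Across all pairs of the 6 members, identity ran from 88.5% for MT1F and MT1X to 95.1% for MT2A and MT1G. The longest run of bases shared exactly by the main transcripts was 63 for MT2A and MT1X and 96 for MT1G and MT1X. How fragments that match several members were divided is not given in the sources used here, and sharing of fragments between members was not measured, so the level of a single member is uncertain to that extent.

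MT2A (ENSG00000125148, chr16:56608199-56609497, plus strand) is the main metallothionein of most human tissues. Its level was 3190, 3263 and 3207 FPKM in the OV-BRCA1 samples 1 to 3 and 2293, 2170 and 2089 FPKM in the NC samples 1 to 3. Every OV-BRCA1 sample was above every NC sample, and the gap between the groups was far wider than the spread within either. The means were 3220 ± 38.5 FPKM (SD, n = 3) and 2184 ± 103 FPKM (SD, n = 3), a ratio of 1.47. The log2 fold change was 0.56 ± 0.04 (SE; 95% interval 0.45 to 0.67; limma adjusted p = 0.000325). Among all genes, MT2A ranked 9, 10 and 11 by FPKM in the OV-BRCA1 samples and 15, 18 and 17 in the NC samples. In a bulk sample, a change in RNA per cell and a change in the share of cells that make it cannot be told apart.

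MT1X (ENSG00000187193, chr16:56682424-56684196, plus strand) is a further metal-inducible form of the type 1 subfamily. Its level was 141.0, 153.9 and 147.8 FPKM in the OV-BRCA1 samples and 158.1, 157.9 and 159.8 FPKM in the NC samples. The NC samples were all above the OV-BRCA1 samples. The log2 fold change of -0.10 ± 0.05 (SE; 95% interval -0.22 to 0.01) did not pass the test (limma adjusted p = 0.128). Groups that do not overlap were common in this comparison, at 50.8% of the genes tested.

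MT1F (ENSG00000198417, chr16:56657694-56660698, plus strand), another type 1 form, was low. The OV-BRCA1 samples had 2.85, 3.74 and 3.27 FPKM and the NC samples 3.24, 3.44 and 4.73 FPKM. The groups overlapped. The log2 fold change was -0.15 ± 0.14 (SE; 95% interval -0.50 to 0.20; limma adjusted p = 0.449).

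MT1E (ENSG00000169715, chr16:56625475-56627112, plus strand) was listed at 0 in OV-BRCA1 sample 1 and in the 3 NC samples. It had 0.0881 FPKM in OV-BRCA1 sample 2 and 0.313 FPKM in OV-BRCA1 sample 3. By the estimated depth these values are about 1.00 and 3.01 fragments, so no fold change is given. MT1G (ENSG00000125144, chr16:56666731-56668065, minus strand) and MT1M (ENSG00000205364, chr16:56632233-56633986, plus strand) were listed at 0 in all 6 samples. A single fragment would have been worth 0.129 to 0.180 FPKM for MT1G and 0.0630 to 0.0884 FPKM for MT1M, depending on the sample. MT1E, MT1G and MT1M did not reach the 0.5 FPKM in 3 samples that the test required.

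**Figure D1:**
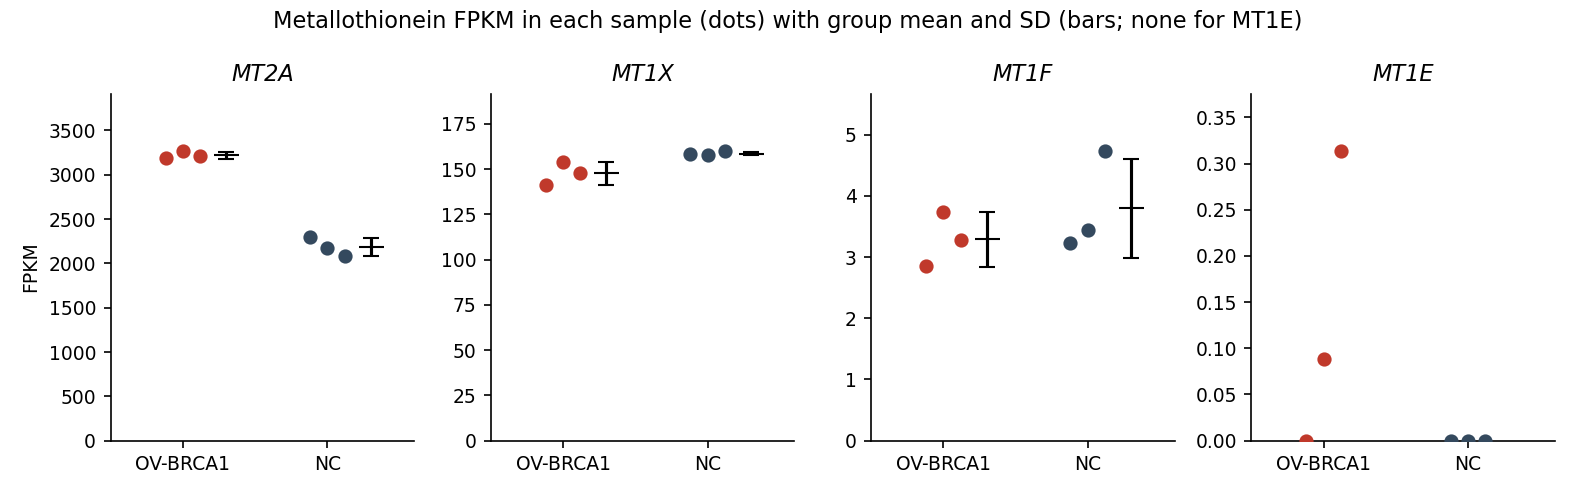
FPKM of MT2A, MT1X, MT1F and MT1E in each of the 6 samples (dots, replicate 1 to 3 from left to right), with the group mean and SD as bars except for MT1E. MT2A lay at 3190 to 3263 FPKM in OV-BRCA1 and 2089 to 2293 FPKM in NC, while MT1F overlapped between the groups and MT1E was listed at 0 in 4 samples.

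The order of the members by level was the same in every sample, MT2A above MT1X, MT1X above MT1F and MT1F above MT1E. MT2A made up 95.4% to 95.7% of the members' summed FPKM in the OV-BRCA1 samples and 92.7% to 93.4% in the NC samples. The sum was 3334, 3421 and 3358 FPKM in the OV-BRCA1 samples and 2454, 2331 and 2253 FPKM in the NC samples, with means of 3371 ± 45.1 and 2346 ± 101 FPKM (SD, n = 3 each). The ratio of the sum between groups was 1.44. As a share of the FPKM of all genes, the members took 0.734% ± 0.0105 in OV-BRCA1 and 0.486% ± 0.0212 in NC (SD, n = 3 each).

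MT2A and MT1X were set against each other within each library, a comparison chosen after their values were seen. The ratio of their FPKM was 22.6, 21.2 and 21.7 in the OV-BRCA1 samples and 14.5, 13.7 and 13.1 in the NC samples. All 3 OV-BRCA1 ratios exceeded all 3 NC ratios. By its construction the ratio does not depend on how a library is scaled, and the cause of its difference between the groups was not tested. The difference in log2 ratio was 0.67 ± 0.05 (SE). It is given as a description with no test, since the pair was chosen with its values known. The ratio of MT1X to MT1F overlapped between the groups, at 41.2 to 49.4 in OV-BRCA1 and 33.8 to 48.8 in NC.

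**Figure D2:**
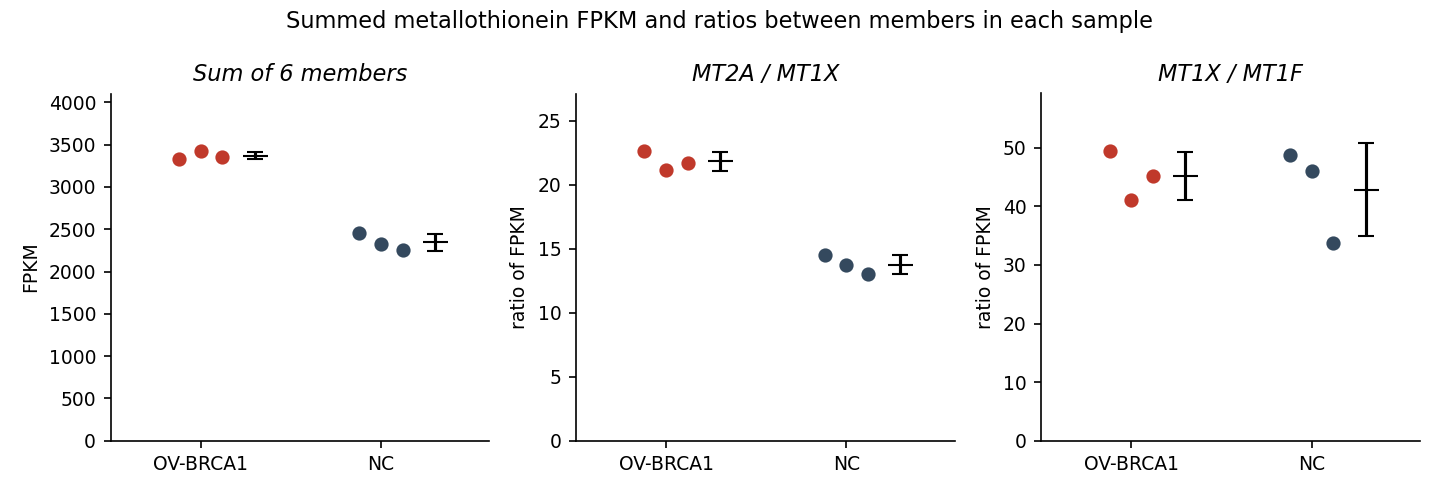
Summed FPKM of the 6 members and the FPKM ratios MT2A to MT1X and MT1X to MT1F in each sample (dots, replicate 1 to 3 from left to right), with group mean and SD (bars). The MT2A to MT1X ratio was 21.2 to 22.6 in OV-BRCA1 and 13.1 to 14.5 in NC, while the ratio of MT1X to MT1F overlapped.

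At the level of transcripts, MT2A-201, a protein-coding form of 786 bases, carried 97.0% to 97.8% of MT2A in each sample. It stood at 3118, 3189 and 3121 FPKM in OV-BRCA1 and at 2237, 2104 and 2034 FPKM in NC. A separate fit over single transcripts, added after the data were seen, called 5.47% of 50925 transcripts. MT2A-201 was among them, with a log2 fold change of 0.57 ± 0.04 (SE, limma adjusted p = 0.00187). The 2 processed transcripts without a coding sequence, MT2A-205 and MT2A-204, had log2 fold changes of 0.61 and 0.46 but were not called (limma adjusted p = 0.0606 and 0.146). MT2A-203, which retains an intron, was at 6.29, 6.91 and 5.24 FPKM in OV-BRCA1 and at 8.38, 7.65 and 8.25 FPKM in NC. Its direction was opposite to that of MT2A-201, and it did not pass the test (log2 fold change -0.35 ± 0.13 SE, limma adjusted p = 0.191). MT2A-202, the other protein-coding form tested, was at 6.82, 6.25 and 9.06 FPKM in OV-BRCA1 and at 7.09, 9.14 and 8.05 FPKM in NC, which overlapped (log2 fold change -0.13, limma adjusted p = 0.719).

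MT1X was also carried mainly by 1 transcript. MT1X-201 made up 93.8% to 94.9% of the gene in OV-BRCA1 and 95.5% to 96.9% in NC. It stood at 132.3, 144.4 and 140.3 FPKM in OV-BRCA1 and at 151.5, 150.8 and 154.8 FPKM in NC. It was not called (log2 fold change -0.13 ± 0.05 SE, limma adjusted p = 0.207). MT1X-203, annotated as a target of nonsense-mediated decay, had 6.81, 7.21 and 5.39 FPKM in OV-BRCA1 against 4.79, 5.17 and 3.06 FPKM in NC. Those groups did not overlap, and the direction was opposite to that of MT1X-201. The transcript was not called (log2 fold change 0.50, limma adjusted p = 0.242). For MT1F, MT1F-201 held 89.5% to 99.5% of the gene.

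**Figure D3:**
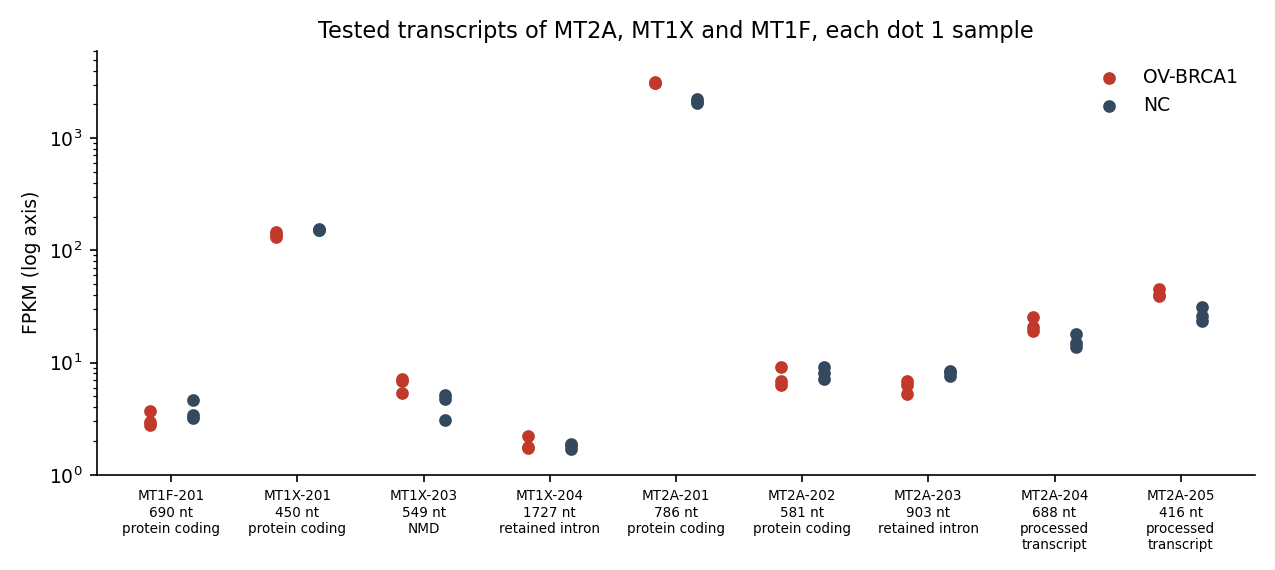
FPKM (log axis) of the 9 tested transcripts of MT2A, MT1X and MT1F, each dot 1 sample. MT2A-201 stood far above the other MT2A forms and was the 1 transcript shown that was called, while MT2A-203 was lower in OV-BRCA1 without passing the test.

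Levels of different members depend on the annotated lengths. GENCODE starts MT2A-201 385 bases upstream of the RefSeq start, and MT1X-201 46 bases upstream. Counted from the RefSeq start, MT2A-201 would be 401 bases rather than 786, and its FPKM 1.96 times higher, with means of 6161 in OV-BRCA1 and 4165 in NC. The same step would raise MT1X-201 by 1.11 times. It leaves the ratio between groups as it is.

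The RefSeq promoter table (GRCh38.p14, 250 bases before to 50 after the start) held 2 of the 6 members, MT2A and MT1X. The core of the metal response element was searched on both strands as TGCACNC and TGCGCNC. MT2A had 8 matches and MT1X 4, and no matches shared a base. Of the 3 other metallothionein genes in that table, MT1H also had 8 and MT4 and MT1B had 3 each, while MT1H and MT4 were listed at 0 in all 6 samples. Either core was present in 29.6% of the 35116 promoters, and 0.0199% of promoters, 7 in all, had at least 8. Promoters with 4 or more made up 0.601%. TGACNNNGC, the core of the antioxidant response element, was matched once in each of the 2 promoters and in 13.3% of all promoters. The match nearest to the start among those with 10 bases on either side before the start is shown for each gene, with the core in capitals.
MT2A: gcggggctttTGCACTCgtcccggctc
MT1X: gcggggcctcTGCGCCCggccctcttc
The MT2A stretch is chr16:56608520-56608546 on the plus strand and begins its core 54 bases before the RefSeq start, inside what GENCODE lists as the first exon of MT2A-201. That of MT1X is chr16:56682407-56682433, with the core 53 bases before the start. Matches to these letters are a description and do not show binding.

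The 16 metallothionein genes and pseudogenes on chromosome 16 include the 6 members, which span 76.0 kb from the start of MT2A to the end of MT1X. The annotation held 15 metallothionein genes and pseudogenes outside the members, and 9 of them were listed at 0 in all 6 samples. MT1L was at 0.155 FPKM in OV-BRCA1 sample 1 and MT1B at 0.135 FPKM in OV-BRCA1 sample 2, each listed at 0 in the other samples. MT1JP did not exceed 0.00393 FPKM, MT1XP1 0.980 FPKM or MT1P1 0.705 FPKM. MT2P1, a processed pseudogene on chromosome 4, was the only one of the 15 that was tested. Its level was 1.40, 0.503 and 1.06 FPKM in OV-BRCA1 and 0.989, 0.373 and 0.988 FPKM in NC, which overlapped (log2 fold change 0.15, limma adjusted p = 0.642). Without NC sample 2 its log2 fold change was -0.03.

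Of 9 protein-coding genes on the flanks of the cluster, 8 were tested. OGFOD1 and NLRC5 rose and none of the 8 fell, so 2 were called, against 35.3% of all genes tested. OGFOD1, an oxygenase that modifies a ribosomal protein, was at 45.3, 43.3 and 47.2 FPKM in OV-BRCA1 and 24.8, 24.8 and 24.0 FPKM in NC (log2 fold change 0.86 ± 0.05 SE, limma adjusted p = 0.00012). NLRC5, an activator of MHC class I genes, had a log2 fold change of 0.75 ± 0.16 (SE, limma adjusted p = 0.0152), and its call was lost without OV-BRCA1 sample 3 (limma adjusted p = 0.0521) and by its most abundant transcript (log2 fold change 1.65, limma adjusted p = 0.185). BBS2 and NUP93, the nearest on either side, were not called, at log2 fold changes of -0.22 ± 0.13 and -0.25 ± 0.13 (SE). NUP93 is, however, among the downregulated DEGs listed in the paper's supplement. Leaving out single samples gave -0.33 to -0.13 for BBS2 and -0.34 to -0.12 for NUP93, with no call. GNAO1, NUDT21, SLC12A3 and HERPUD1 were not called either, between -0.28 and 0.08. GNAO1 became called without NC sample 1 (log2 fold change -0.43, limma adjusted p = 0.0148). The direction of HERPUD1 turned without NC sample 2, from 0.08 to -0.02. By the most abundant transcript, GNAO1, NUP93 and HERPUD1 turned to 0.61, 0.15 and -0.18, and none was called. CETP was too low to be tested.

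**Figure D4:**
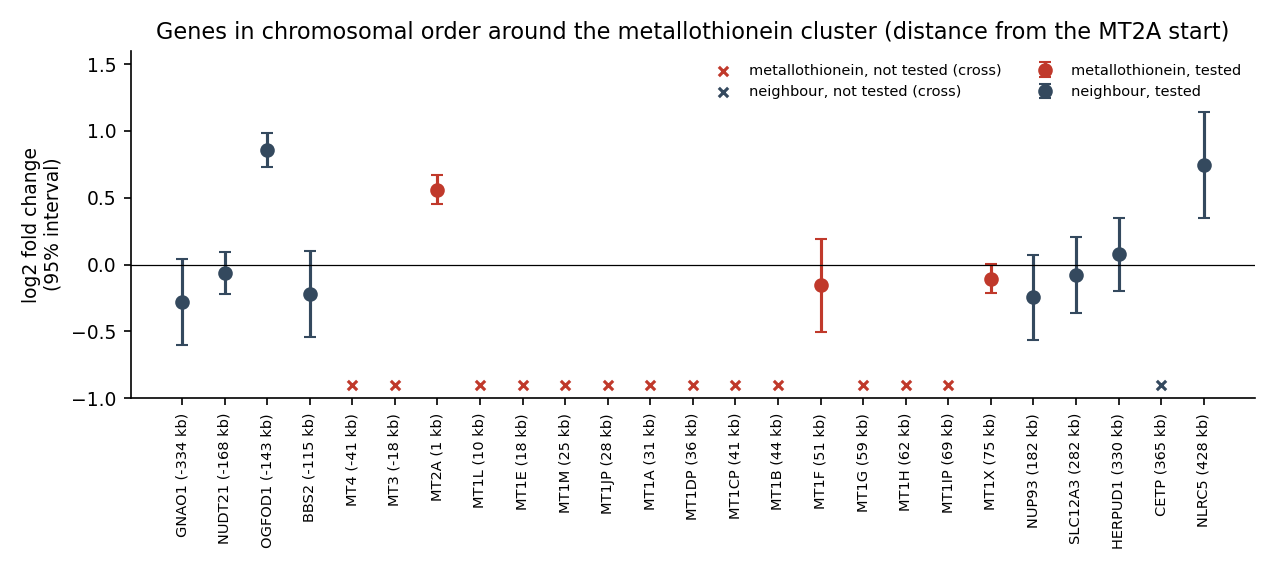
Log2 fold change (OV-BRCA1 over NC, 95% interval) of metallothionein genes and 9 protein-coding genes on the flanks, in chromosomal order with the distance of each gene's middle from the MT2A start. Crosses mark genes that were not tested. MT2A, OGFOD1 and NLRC5 were called, and MT1F and MT1X have intervals that include 0.

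MTF1, the zinc sensor, stood at 3.51, 4.03 and 3.95 FPKM in OV-BRCA1 and at 2.97, 2.79 and 3.15 FPKM in NC. The groups did not overlap, and the gene was called as higher with little margin (log2 fold change 0.28 ± 0.08 SE, limma adjusted p = 0.0437). The call was lost in 9 of 13 alternative settings. Among them were the fits without OV-BRCA1 sample 2 or 3 and without NC sample 1, 2 or 3, with limma adjusted p of 0.0707 to 0.120. Its direction held in all 13.

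Metal handling genes, glucocorticoid-induced genes, heat shock genes and thiol antioxidant genes were described with lists. Of 76 listed genes, 67 were tested, 19 rose and 13 fell, so 47.8% were called beside 35.3% of all genes tested. For the zinc, MTF1, copper and iron genes the share was 38.5% (15 of 39), and for the glucocorticoid, heat shock and thiol genes 60.7% (17 of 28). The median log2 fold change of all genes tested was -0.04, and the lists had medians on either side of it.

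The zinc exporters, which move zinc out of the cytosol, had 4 genes higher, none lower and 3 not called among the 7 tested, with a median log2 fold change of 0.38. SLC30A1, the exporter of the cell surface and itself an MTF1 target, was at 19.6, 20.6 and 19.99 FPKM in OV-BRCA1 and 13.0, 13.2 and 12.9 FPKM in NC. This was a log2 fold change of 0.59 ± 0.05 (SE, limma adjusted p = 0.000529). SLC30A7, which loads zinc into the secretory pathway, rose from 4.93 ± 0.287 to 9.16 ± 0.763 FPKM (SD, n = 3 each; log2 fold change 0.78, limma adjusted p = 0.0011). SLC30A6 and SLC30A3 rose by less, with log2 fold changes of 0.38 and 0.38 (limma adjusted p = 0.0209 and 0.0215). SLC30A6 was not called without OV-BRCA1 sample 2 or 3 or NC sample 1 or 3 (limma adjusted p of 0.0595 to 0.0646). SLC30A3 was not called without OV-BRCA1 sample 1 or 2 or NC sample 1 or 3 (limma adjusted p of 0.0522 to 0.0668). By their most abundant transcripts, SLC30A6 and SLC30A3 were at 1.01 and 0.58 and not called (limma adjusted p = 0.356 and 0.376).

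Among the zinc importers, 11 were tested, 3 rose, 1 fell and 7 were not called, with a median of 0.16. SLC39A8, a carrier of zinc that also takes in manganese, iron and cadmium, was the most abundant of them in the OV-BRCA1 samples. It stood at 113.0, 112.3 and 115.4 FPKM in OV-BRCA1 and at 54.2, 54.1 and 54.9 FPKM in NC. The lowest OV-BRCA1 value exceeded the highest NC value, and SLC39A8 was the DEG of this list (log2 fold change 1.05 ± 0.04 SE, limma adjusted p = 1.57e-05). SLC39A6 rose from 68.9 ± 1.12 to 92.1 ± 2.11 FPKM (SD, n = 3 each; log2 fold change 0.41, limma adjusted p = 0.000869). SLC39A4 was called higher and SLC39A13 lower, at log2 fold changes of 0.37 and -0.34 (limma adjusted p = 0.0391 and 0.0224). Leaving out OV-BRCA1 sample 1, 2 or 3 or NC sample 2 or 3 ended the call of SLC39A4 (limma adjusted p of 0.0565 to 0.110). Leaving out OV-BRCA1 sample 1 or 2 or NC sample 1, 2 or 3 ended that of SLC39A13 (limma adjusted p of 0.0529 to 0.0650). By their most abundant transcripts, SLC39A4 and SLC39A13 were at 0.11 and -0.99 and not called (limma adjusted p = 0.829 and 0.142). SLC39A4 was also not called without the filter on low values (limma adjusted p = 0.0816), at an unchanged log2 fold change of 0.37.

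Copper handling genes had 1 higher, 1 lower and 9 not called of 11, with a median of -0.05. CCS, the chaperone that delivers copper to SOD1, fell from 27.4 ± 1.52 to 14.1 ± 1.16 FPKM (SD, n = 3 each; log2 fold change -0.91, limma adjusted p = 0.000425). SLC31A1, the copper importer of the cell surface, rose from 14.0 ± 0.868 to 20.1 ± 0.405 FPKM (SD, n = 3 each; log2 fold change 0.49, limma adjusted p = 0.00211). COX17 and COMMD1 came next and were not called, at log2 fold changes of -0.39 and -0.21 (limma adjusted p = 0.054 and 0.108). COX17 became called without OV-BRCA1 sample 2 (log2 fold change -0.53, limma adjusted p = 0.00577) and with scaling to nuclear protein-coding genes (limma adjusted p = 0.0484). COMMD1 was at -0.60 by its most abundant transcript and at -0.13 without OV-BRCA1 sample 2, and was called in neither (limma adjusted p = 0.0628 and 0.214).

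Iron handling genes had none higher, 4 lower and 5 not called of 9, with a median of -0.35. FTH1, the heavy chain of the iron store ferritin, was at 2247, 2164 and 2273 FPKM in OV-BRCA1 and 4315, 4624 and 4769 FPKM in NC. Every OV-BRCA1 sample was below every NC sample, with a log2 fold change of -1.03 ± 0.05 (SE, limma adjusted p = 3.98e-05). FTL, the light chain, fell as well (log2 fold change -0.35, limma adjusted p = 0.000968). HMOX1, the haem-degrading enzyme, and ACO1, which doubles as an iron sensor, had log2 fold changes of -0.40 and -1.23 (limma adjusted p = 0.00121 and 0.00461). ACO1 was at -0.46 and not called with the most abundant transcript in place of the sum over transcripts (limma adjusted p = 0.576). FTL was not called without the filter on low values (limma adjusted p = 0.0608), at an unchanged log2 fold change of -0.35.

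The glucocorticoid-induced genes were divided. Of 9 tested, 2 rose, 3 fell and 4 were not called, with a median of -0.07. ANGPTL4 (log2 fold change 1.30, limma adjusted p = 0.000109) and FKBP5 (0.47, limma adjusted p = 0.0109) were higher. DUSP1 (-0.43, limma adjusted p = 0.000393) and PER1 (-0.96, limma adjusted p = 0.00261) were lower. Taking the most abundant transcript in place of the sum ended the calls of PER1 (log2 fold change 0.06, limma adjusted p = 0.959) and ANGPTL4 (1.15, limma adjusted p = 0.31).

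Heat shock genes included 5 that rose, 3 that fell and 3 not called of 11, with a median of -0.05. HSPA1A and HSPA1B, near-identical paralogs that can share reads, and HSPB1 fell, with log2 fold changes of -0.61, -0.49 and -0.61 (limma adjusted p = 0.000172, 0.000385 and 0.000313). HSPD1, the mitochondrial chaperonin, rose by 0.39 (limma adjusted p = 0.00107). By its most abundant transcript it was at 0.85 and not called (limma adjusted p = 0.245). The genes of the other thiol pool, glutathione and thioredoxin, had 3 higher, 1 lower and 4 not called of 8, with a median of 0.41. SLC7A11, the cystine importer, rose from 3.29 ± 0.118 to 7.58 ± 0.411 FPKM (SD, n = 3 each; log2 fold change 1.00, limma adjusted p = 0.000247). GCLM and SRXN1 rose by 0.60 and 0.56 on the log2 scale and GSS fell by 0.38 (limma adjusted p = 0.000802, 0.00207 and 0.00192).

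**Figure D5:**
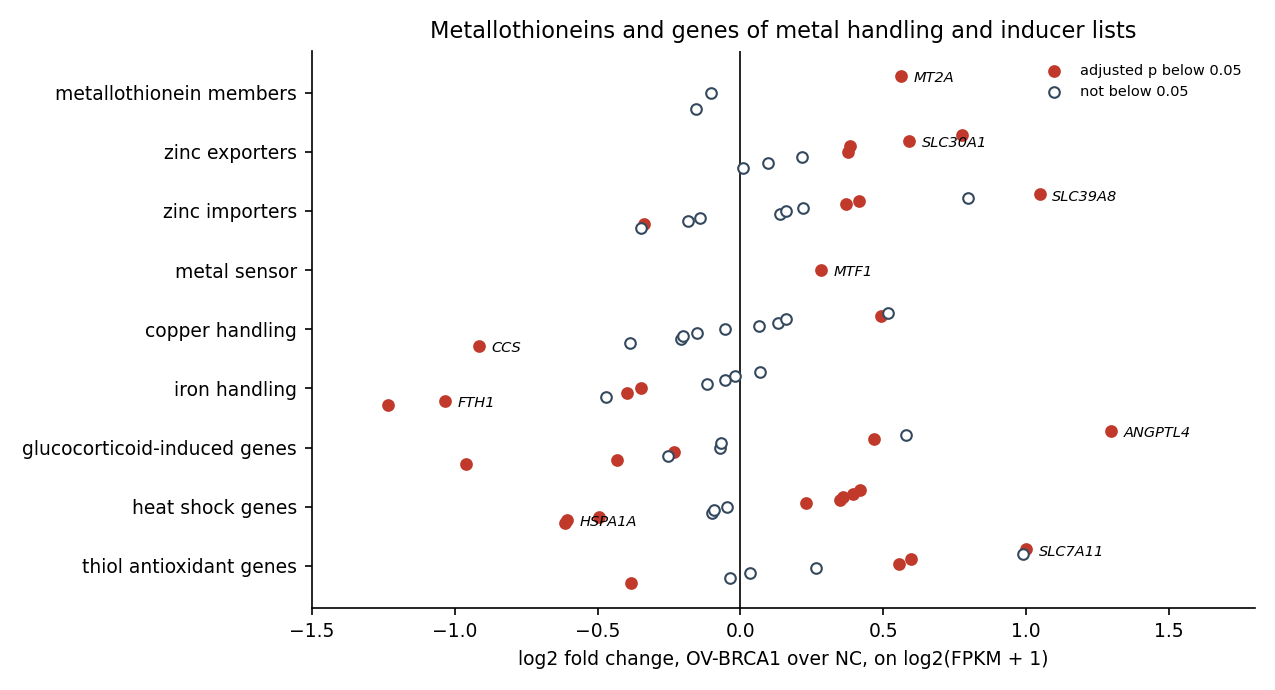
Log2 fold change (OV-BRCA1 over NC) of the tested members and of the tested genes of each list, filled where the limma adjusted p was below 0.05, with the gene of smallest adjusted p named. The zinc exporters lie at or above 0, with 4 of 7 called higher, and the 4 called iron handling genes lie below 0.

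The genes whose pattern over the 6 samples was nearest to each tested member were sought among 14015 other genes of mean FPKM at least 1, by the root mean square difference of centred log2(FPKM + 1). For MT2A they were GNL3L, TMX1 and AMH, at differences of 0.0173, 0.0233 and 0.0237. GNL3L, a nucleolar GTP-binding protein gene, stood at 6.24 ± 0.151 FPKM in OV-BRCA1 and 3.95 ± 0.195 FPKM in NC (SD, n = 3 each), and was not called by its most abundant transcript alone (limma adjusted p = 0.0529). For MT1X they were AP1B1, MYH9 and EPM2AIP1 (0.0174, 0.0177 and 0.0205), and for MT1F PCED1B, TAF1 and KRT86 (0.0349, 0.0356 and 0.0554). The direction of TAF1 turned by its most abundant transcript (log2 fold change 0.41), and it was not called (limma adjusted p = 0.184). The lists describe likeness only, since the choice by pattern ties the calls of these genes to those of the members.

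Markers were read to check the cell type. Of 10 epithelial markers, not all of them squamous, KRT17 was the most abundant. The summed level was 1797, 1717 and 1862 FPKM in OV-BRCA1 and 2090, 2066 and 2111 FPKM in NC. KRT17 fell (log2 fold change -0.48, limma adjusted p = 0.00263), while KRT6A, KRT8, KRT18 and EPCAM rose, and 2 of the 7 tested were not called. KRT6A was low, at 0.979 to 1.19 FPKM in OV-BRCA1 and below 0.5 FPKM in every NC sample. It thus met the filter on low values through the OV-BRCA1 samples alone. Without that filter KRT6A was still called (limma adjusted p = 0.00626). The rise of KRT8 was small (log2 fold change 0.20, limma adjusted p = 0.0282), and the paper's supplement lists KRT8 among its downregulated DEGs. KRT8 was not called without OV-BRCA1 sample 1 or 2 or NC sample 1 or 2 (limma adjusted p of 0.0767 to 0.0850). Nor was it called without the filter on low values (limma adjusted p = 0.0701) or with scaling to nuclear protein-coding genes (limma adjusted p = 0.0555). Its log2 fold change in these settings was 0.16 to 0.20. KRT5 and TP63 were below 0.5 FPKM in every sample, so these 2 defining squamous markers were near absent. KRT14 did not exceed 0.675 FPKM or CDH1 0.896 FPKM, while SFN was at 119.5 to 135.1 FPKM. None of the 5 fibroblast markers was tested, and their sum did not exceed 0.289 FPKM. Of the 3 endothelial markers, PECAM1 was tested and not called, VWF was listed at 0, and the sum was 0.761, 1.45 and 0.899 FPKM in OV-BRCA1 and 0.692, 0.788 and 0.629 FPKM in NC. Of the 5 leukocyte markers, CD68 alone was tested, and it rose (log2 fold change 2.63, limma adjusted p = 9.75e-05). The leukocyte sum was 22.4, 27.5 and 29.5 FPKM in OV-BRCA1 and 3.75, 4.41 and 3.05 FPKM in NC, nearly all of it CD68, a lysosomal protein gene, while PTPRC, the defining marker of leukocytes, was listed at 0 in all 6 samples. Whether CD68 had any part in the difference in MT2A was not tested.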

How the data were processed

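The authors sequenced mRNA libraries, and the submitters' processing notes name FastQC, HISAT2 and hg38. FPKM per transcript was computed by the authors and is used as deposited; the annotation, the quantifier and any use of strand are not given in the sources used here. Gene IDs were named by GENCODE 29, and FPKM was summed over the transcripts of a gene. Sequencing depth was estimated from the commonest low values, those of a single fragment, at 13.7 to 19.1 M fragments per sample. Only 33.7% to 36.4% of low values lay within 0.1 of a whole fragment, so the fragment numbers given are approximate. Whole counts could not be recovered, so no count test was used. Genes with at least 0.5 FPKM in at least 3 samples were fitted with limma 3.58.1 in R 4.3.3 (empirical Bayes with trend) on log2(FPKM + 1), with Benjamini-Hochberg adjustment over 16321 genes. The fit was tested on simulated data with the spread of the NC samples. It recovered 155 of 200 changed genes (77.5%) and called 3 unchanged genes. A gene that was not called is thus not shown to be unchanged. Genes were named by rule: the members, BRCA1, other metallothioneins above 0 or with a promoter in the table, up to 4 genes with the smallest adjusted p of each list, MTF1, SLC30A1, neighbours and nearest patterns. Cell type markers, and genes said to be picked after their values were seen, fall outside it. A neighbour is not reported here. Members and lists were chosen with earlier results of these data known. Tables and figures were made with Python 3.11.15, numpy 2.4.6, pandas 2.3.3, scipy 1.17.1 and matplotlib 3.10.9.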

Additional observations from a re-analysis of the deposited data

How the results depend on the processing

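MT2A was called as higher in all 14 alternative settings, with log2 fold changes of 0.52 to 0.60 and limma adjusted p of 0.00032 to 0.00752. MT1X and MT1F were called in none of the 14, at -0.14 to -0.07 (limma adjusted p of 0.0757 to 0.275) and -0.24 to -0.02 (limma adjusted p of 0.307 to 0.914). The settings included both scalings, by median of ratios and by nuclear protein-coding genes, and the fit of each transcript on its own, which was added after seeing the data. The log2 ratio of the members' sum between groups, 0.52, ranged from 0.48 to 0.56 under the settings tried.

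With the most abundant transcript in place of the sum over transcripts, 3291 genes were called rather than 5764. Of the genes of the metal handling, glucocorticoid, heat shock and thiol lists, 21 were called rather than 32. That setting also turned the log2 fold change of PER1 to 0.0597, GNAO1 to 0.61, NUP93 to 0.15, TAF1 to 0.41 and HERPUD1 to -0.18. Leaving out single samples gave -0.0225 to 0.178 for HERPUD1, the lowest without NC replicate 2, and from -0.0278 to 0.338 for MT2P1, the lowest without the same sample. Of these genes PER1 was called in the main comparison, and the cause was not tested. Of 39 called genes named outside the members, 26 were called in every setting that tested them. A pseudocount of 0.1 gave 1280 DEGs rather than 651. The main fit called 2674 genes higher and 3090 lower, and the balance depended on scaling. It was 2896 higher and 2825 lower with median-of-ratios scaling, and 2366 higher and 3475 lower with scaling to nuclear protein-coding genes.

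Replicate numbers did not pair the samples, since the deviations of same-numbered samples correlated at -0.02, 0.03 and 0.01. The fit with the replicate block called 4595 genes, and MT2A stayed called. Among the named genes, MTF1, SLC30A3 and KRT8 were not called with it (limma adjusted p = 0.0947, 0.0507 and 0.0813).

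Limits: at the estimated depth MT1E, MT1G and MT1M had too few fragments for any comparison, and the reason was not tested. Any fragments shared between members and the annotated lengths bear on the levels of single members. The files hold FPKM, so counting error could not be modelled. MT2A was measured as RNA, and no metal or protein was measured.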

Other observations

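Some genes of the metal handling lists had a single library apart from the rest. They were picked after their values were seen, and none was called. TFRC, the transferrin receptor that brings iron into the cell, stood at 41.7 FPKM in OV-BRCA1 sample 2 and at 95.1 to 105.5 FPKM in the other 5 samples. SLC39A14, a zinc and iron importer, was at 13.9 FPKM in OV-BRCA1 sample 3 and at 29.9 to 31.9 FPKM elsewhere. SLC39A1, a zinc importer of the cell surface, was at 104.6 FPKM in OV-BRCA1 sample 1 and at 26.7 to 51.7 FPKM elsewhere.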
